A study of Homo sapiens with 4 samples.

Results

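Solute carriers are the membrane proteins that move nutrients, ions, vitamins, metals and metabolites into and out of cells and organelles, and their transcripts are described here for N6-methyladenosine (m6A), the most common internal modification of messenger RNA. Members were all genes named SLC, a family number, A and a member number, with regulators and pseudogenes whose names start the same way kept in. Genes with hyphenated antisense names and 8 carriers of glucose, ascorbate, iron and cystine (SLC2A1, SLC2A3, SLC2A8, SLC2A10, SLC23A2, SLC25A28, SLC25A37 and SLC7A11) were left out. A site was compared where all 4 libraries list it with at least 20 reads in each. This gave 172 genes and 1213 sites, of 10782 genes and 78509 sites in all. A further 51 solute carrier genes had listed sites but no site that met the rule, since 223 genes with 3054 sites are listed in any library.

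The libraries came from HEK293T, a human embryonic kidney line, and each group has 2 libraries. The control group is labelled as wild type and received no ascorbic acid. The other group received ascorbic acid for 36 h, starting 24 h after seeding, with fresh medium every 6 h. The sources used here give no dose, and both groups grew in the same medium with 10% serum. The GLORI assay deaminates unmethylated adenosine to inosine with glyoxal and nitrite, and sequencing reads inosine as G, while m6A resists and still gives A. Of the A and G reads at a site, the percent with A is its m6A level. The level of a gene is the same percent over the summed reads of its tested sites, so that a read covering several sites counts at each.

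As background, a solute carrier usually alternates between states open to either side of a membrane, and many use the gradient of sodium, protons or another solute as the source of energy. Families differ in substrate and location: SLC7 and SLC38 move amino acids, SLC30 and SLC39 move zinc out of and into the cytosol, and SLC25 carriers sit in the inner mitochondrial membrane. m6A in messenger RNA is written mainly by the METTL3 and METTL14 complex and can be removed by FTO and ALKBH5, which need Fe(II), and ascorbate keeps such iron reduced. The comparison asks whether ascorbic acid changes the methylation of RNA.

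Median depth at the member sites was 117 and 129 reads for control 1 and 2, and 122 and 138 reads for ascorbic acid 1 and 2. The deposited conversion rates left a median of 2.48%, 2.72% and 2.89% of adenosine unconverted in member genes in control 1, ascorbic acid 1 and ascorbic acid 2, and 3.92% in control 2, which stood apart. Counts are therefore also given without control 2. Of 9 markers of the line, 6 had listed sites in every library (VIM, CDH2, NEFM, NEFL, SALL1 and EYA1) and NEFH, LHX1 and PAX2 had none. Of 10 markers of other cell types none was listed in all 4 libraries. COL1A1 had 1 listed site in control 2, ascorbic acid 1 and ascorbic acid 2, and the others had none. The labels do not say that replicates were separate cultures, so p-values speak only for these libraries. Replicate levels differed little beyond counting error, so the p-values rest largely on read counts.

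Most solute carrier transcripts carried less m6A with ascorbic acid, and by about as much as transcripts in general. The median level of the 1213 sites was 36.3% and 37.5% in the controls and 30.9% and 30.3% in the treated libraries. The groups did not overlap, and the mean fell by 6.28 percentage points, from 36.9% ± 0.855 to 30.6% ± 0.435 (SD, n = 2). Over all 78509 sites the mean fell by 7.04 points, from a higher start of 40.9% ± 1.23. With 2 libraries a group no permutation of the libraries can pass, so the median has no test of its own. Both treated libraries lay below both controls at 689 member sites (56.8%) and above both at 54 (4.45%), beside 55.4% and 4.22% of all sites.

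By edgeR's quasi-likelihood test on the A and G reads of single sites, 318 member sites fell, 3 rose and 892 missed the threshold of 0.05 on the adjusted p. The share that fell, 26.2%, lay near the 25.7% of all sites that fell, and 0.219% of all sites rose. Without control 2 the counts were 214 that fell and 9 that rose. The share of all sites called in that setting is not given here, and the 25.7% and 0.219% are from all 4 libraries. With all 4 libraries the level was lower by any amount at 83.2% of member sites and at 82.9% of all sites. Of the member sites, 91 in 59 genes passed and fell by over 20 points, and 7 by over 40 points. Over all 78509 sites, 6337 passed and fell by over 20 points, and 850 by over 40 points.

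Summed per gene, 107 of the 172 solute carriers fell, 2 rose (SLC4A2 and SLC38A9) and 63 did not pass by edgeR. That is 62.2% that fell, beside 56.7% of all genes, and 0.297% of all genes rose. Among genes with at least 3 tested sites the counts were 93 of 127 (73.2%) and, over all genes, 4938 of 7236 (68.2%). The median change was -0.41 on the log2 odds scale, where 0 is no change, and -0.39 over all genes. Both treated libraries lay below both controls in 134 member genes and above both in 6, beside 76.7% and 1.75% of all genes. The shares of all genes are from all 4 libraries, and none is given for the count without control 2 that follows. Without control 2, 90 member genes fell and 2 rose.

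**Figure D1:**
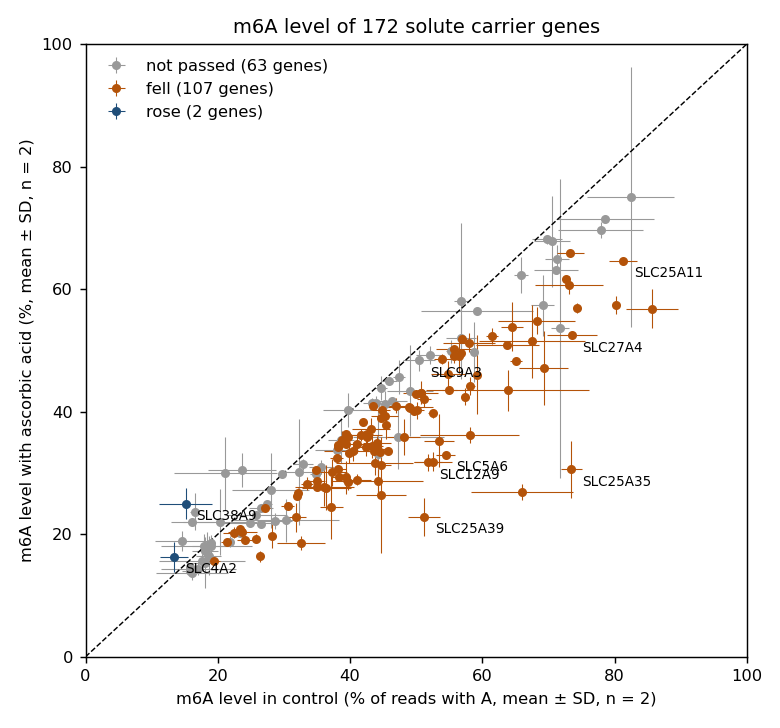
The m6A level of each of the 172 solute carrier genes in control (x axis, % of reads with A, mean ± SD, n = 2) against its level with ascorbic acid (y axis, same unit), with the dashed line at equal levels. The 107 genes that fell by edgeR (orange) lie below the line, the 2 that rose (blue) lie at its low end, and the 63 that did not pass (grey) lie on both sides.

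The share of sites that passed grew with the starting level and with depth. In control bins of 0 to 20, 20 to 40, 40 to 60, 60 to 80 and 80 to 100%, the member sites that fell were 5.14%, 12.3%, 30.6%, 40.5% and 66.0%. Over all sites the same bins held 4.65%, 13.8%, 24.6%, 38.7% and 57.5%. Of member sites with at least 200 reads in every library 144 of 385 fell (37.4%, and 40.9% of all such sites), and of those under 50 reads in some library 42 of 285 (14.7%, and 15.1%). A site that did not pass at low depth is thus not shown to be unchanged.

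A first group of sites is shown with its sequence because none of them was called as lower. They were singled out after their positions and values were seen. The first transcribed base of many messenger RNAs, next to the cap, is an adenosine that can carry N6,2'-O-dimethyladenosine (m6Am), whose N6 methyl group is written by PCIF1, and the assay reads any N6-methylated A as A. RefSeq promoter windows on GRCh38.p14, which can hold several starts per gene, were at hand for 129 of the member genes. Of the member sites, 9 lay at an annotated first base. The first base is in capitals below, with 15 bases before it and 14 after it, on the strand of the gene.
SLC1A5: ccgctaaacgggctcAgagccacgcggcac
SLC3A2: cgcctgctgctgagcAgatgcagtagccga
SLC38A2: tcgcagggctgctccAcagccgcgcgacgc
SLC1A3: gtaacttgcagtttcAgagcacatgcacac
SLC16A10: gctggcagtgggctcAgtcgggggtgcggg
SLC50A1: ggtctgggctgcagtAggtcccggcaaccg
SLC35A4: atgcgcctgcgcaacAagttcggcggggaa
SLC35A5: ttccggaagcgtaacActgaacgtgcctgc
SLC30A9: gtttccgggtcacccAggcagcttgtggcg

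The base before the first A was C in 8 of the 9 (all but SLC50A1), and in 76.7% of the 707 first-base sites of the whole series. The pair CA with its A at the first base, read on the strand of the gene, is found in 29.6% of all 35116 promoter windows, and in 66.6% of those that start with A. The windows lie at chr19:46788580-46788609 (SLC1A5, minus strand), chr11:62880881-62880910 (SLC3A2, plus), chr12:46372759-46372788 (SLC38A2, minus), chr5:36606591-36606620 (SLC1A3, plus) and chr6:111087488-111087517 (SLC16A10, plus). The others lie at chr1:155135837-155135866 (SLC50A1), chr5:140564813-140564842 (SLC35A4), chr3:112562030-112562059 (SLC35A5) and chr4:41990515-41990544 (SLC30A9), all on the plus strand.

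None of these 9 sites fell and none rose by edgeR, beside 3 that fell (0.424%) and 5 that rose of 707 in the whole series. The mean of library medians over the 9 sites went from 30.4% ± 10.1 to 26.1% ± 1.61 (SD, n = 2). Over the 707 it went from 29.5% to 29.8%. Of the 9 sites, 5 were lower in mean level with ascorbic acid and 4 were higher. The deepest was that of SLC1A5, the glutamine and neutral amino acid carrier ASCT2, with 222 to 366 reads a library. Its first base stood at 54.5% and 62.4% in control and at 58.6% and 57.4% with ascorbic acid, so the groups overlapped (log2 odds -0.05 ± 0.19 SE, adjusted p = 0.897). In the same gene 8 of 20 tested sites fell, and the one at chr19:46775465 went from 94.0% and 93.2% to 81.0% and 77.6% (adjusted p = 2.18e-11). SLC3A2, the heavy chain that brings SLC7 carriers to the cell surface, also had an uncalled first base, while each of its other 5 sites fell. That base stood at 33.9% and 39.0% in control and at 31.2% and 49.1% with ascorbic acid, on 41 to 62 reads. Its log2 odds change was 0.28 ± 0.41 SE (adjusted p = 0.683 by edgeR), and a missed call at that depth does not show a different response. SLC30A9, a zinc carrier of mitochondria, had 136 to 201 reads at its first base, with 15.4% and 16.4% in control and 20.3% and 20.0% after ascorbic acid (adjusted p = 0.317). Both treated libraries lay above both controls there and at SLC50A1 (18.2% and 19.0% against 20.8% and 22.6%). Both lay below at SLC16A10 alone (23.3% and 25.5% against 15% and 19.4%), and the groups overlapped at the other 6. Over all 707 first-base sites both treated libraries lay below both controls at 15.8% and above at 16.0%.

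Across the 9 genes the 86 other tested sites included 29 that fell and none that rose, and 8 of the 9 genes fell as a whole. Over the whole series 25.7% of sites and 56.7% of genes fell, and 68.2% of genes with at least 3 tested sites. Only 2 of the 9 first-base sites, those of SLC1A5 and SLC30A9, had at least 50 reads in every library. In the whole series 287 first-base sites had at least 100 reads in every library and none of them fell, beside 35.4% of 34928 other sites of that depth. First-base sites also start lower, at a median of 29.5% in control against 41.2% elsewhere. Within the control bins of 20 to 40, 40 to 60 and 60 to 80% the first-base sites that fell were 0 of 338, 3 of 157 and 0 of 44, and 14.0%, 24.8% and 38.8% of other sites. Member first-base sites that fell numbered 0 under each of the site settings tried. Over the whole series that count ran from 0 to 16, the 16 arising without control 1, and 15 rose without control 2. The 9 member sites were shown because none was called as lower, so their count of 0 under other settings is no separate support. The SE of their log2 odds changes ran from 0.19 in SLC1A5 to 0.55 in SLC35A5. The median change over all member sites was -0.38, so a fall of that size could go uncalled at a single first-base site. The cause of the difference between first-base and other sites was not tested. The windows held 6 further member sites away from the first base, and none of those was called either.

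**Figure D2:**
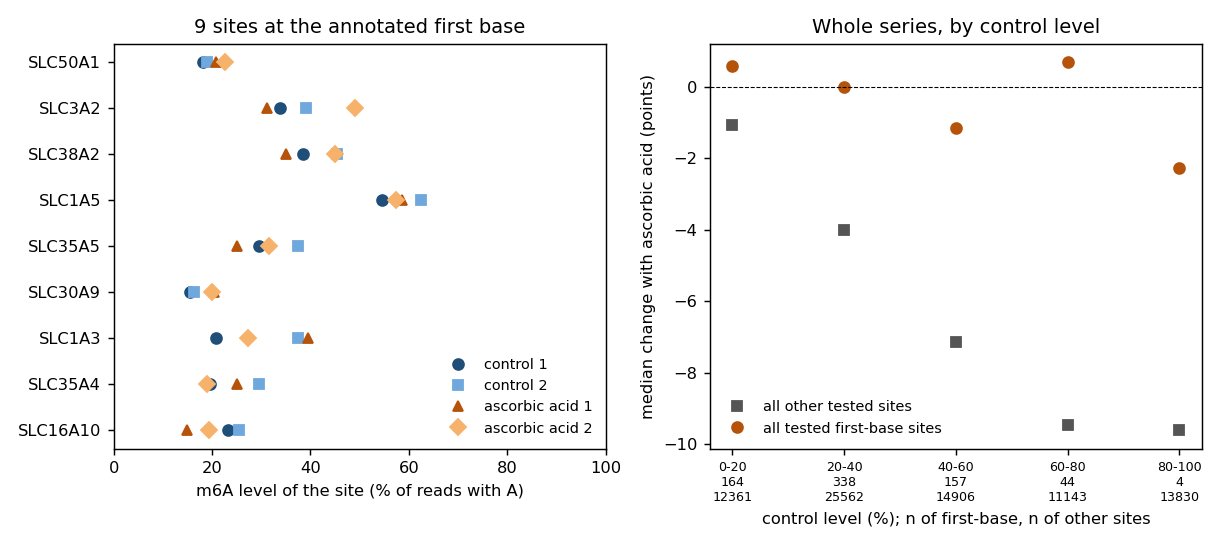
Left, the m6A level (x axis, % of reads with A) of the 9 solute carrier sites at an annotated first base in each of the 4 libraries, by gene, with control in blue and ascorbic acid in orange; the groups overlap at 6 of them. Right, the median change with ascorbic acid (y axis, percentage points) by control level (x axis, %) over all 707 first-base sites (circles) and all other tested sites (squares), with the number of sites of each kind under the axis; other sites lie from -1.07 to -9.61 and first-base sites between -2.28 and 0.69, the -2.28 resting on 4 sites (80 to 100%) and the next lowest value being -1.15.

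Members were then grouped by transport role, in classes of 3 to 36 genes. The counts by class stand beside 56.7% of all genes that fell, and no class was tested against the rest. Of all genes with at least 3 tested sites 68.2% fell. By single sites the share that fell ran from 12.5% in vesicular and lysosomal carriers to 40% in lipid, choline and acetyl-CoA carriers, beside 25.7% of all sites. Amino acid carriers stood at 24.1%, vitamin carriers at 22.2% and organic ion carriers at 16.1%. Nucleoside and nucleotide sugar carriers stood at 27.4%, sugar carriers at 30.3% and mitochondrial carriers at 36.9%. The amino acid carriers counted 18 that fell, 1 that rose and 5 that did not pass, so that 75% fell, with a median change of -0.30 on the log2 odds scale. SLC6A8, the creatine carrier, had the smallest p, with 45.4% and 46.2% in control and 33.5% and 33.8% after ascorbic acid (-0.74 ± 0.08 SE, adjusted p = 1.57e-07). Without sites that have a listed neighbour at 6 nt its change was -1.44. SLC38A10 went from 49.4% and 50.9% to 39.2% and 41.2% (adjusted p = 3.58e-05). The groups did not overlap in either gene. SLC7A1, a carrier of arginine and lysine, had the most tested sites of all members. Its level was 39.3% and 40.2% in control and 36.0% and 35.6% after ascorbic acid (-0.24 ± 0.06 SE, adjusted p = 0.00345), with 5 of 39 sites that fell. SLC7A5, the large neutral amino acid carrier LAT1, went from 38.0% and 38.4% to 34.5% and 34.5%, with 7 of 23 sites that fell. These are small shifts over many sites, and both calls were lost on leaving out either ascorbic acid library (adjusted p = 0.0949 and 0.138 for SLC7A1, 0.134 and 0.141 for SLC7A5). SLC43A1, another neutral amino acid carrier, fell further but on 3 sites and with treated libraries far apart, from 47.3% and 42.1% to 19.7% and 33.1%. Leaving out ascorbic acid 1 ended its call (-0.72, adjusted p = 0.0689). SLC6A11, a GABA carrier with one of the 3 lowest control levels, stood at 13.9% and 18.4% in control and at 21.5% and 22.4% with ascorbic acid and did not pass (adjusted p = 0.132).

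Of the mitochondrial carriers of family SLC25, 24 of 36 fell (66.7%), none rose and the median was -0.49. SLC25A11, the oxoglutarate and malate carrier, had the highest control level among members with at least 3 sites. It stood at 79.8% and 82.7% in control and at 64.2% and 64.9% with ascorbic acid (-1.26 ± 0.08 SE, adjusted p = 1.32e-10), and its 3 sites each fell. Its deepest site, at chr17:4937612 with at least 4459 reads a library, went from 91.7% and 92.2% to 73.5% and 74.5%. SLC25A39, which brings glutathione into mitochondria, went from 49.5% and 52.9% to 20.7% and 25.1% over 2 sites (-1.81 ± 0.17 SE, adjusted p = 2.29e-08). SLC25A10, the dicarboxylate carrier, started below SLC25A11 and moved less, from 71.9% and 74.8% to 65.4% and 66.2%. SLC25A45 went from 63.4% and 52.8% to 37.1% and 35.2% and SLC25A16 from 51.8% and 55.1% to 32.3% and 38.3% (-1.07, or -1.94 over sites with at least 50 reads in every library). The largest changes of all members lay in genes with 1 site, which the naming rule did not take and which were picked after their values were seen. SLC25A35 stood at 72.3% and 74.5% in control and at 27.3% and 33.9% with ascorbic acid (-2.63 ± 0.39 SE, adjusted p = 8.78e-06) on 47 to 62 reads. SLC25A41 went from 88.5% and 82.8% to 59.1% and 54.5% on 154 to 198 reads.

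Sugar carriers by family number had the lowest class median, -0.61, with 7 of 8 that fell. The leading member, SLC5A6, belongs to the sodium and glucose carrier family but moves biotin, pantothenate and lipoate. It stood at 53.5% and 55.4% in control and at 32.8% and 33.0% with ascorbic acid (-1.29 ± 0.07 SE, adjusted p = 1.17e-11), and 8 of its 9 sites fell. SLC50A1, the sugar carrier SWEET1, went from 30.7% and 32.9% to 24.4% and 21.1% (adjusted p = 0.000295). SLC2A6, a glucose carrier of the GLUT family, went from 55.1% and 72.5% to 45.9% and 41.1% (-1.29 ± 0.29 SE, adjusted p = 0.000728). Its control libraries lay further apart than in the other named members, and without control 2 its call was lost (-0.69, adjusted p = 0.0624).

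Vitamin carriers counted 4 of 5 that fell. SLC19A1, the reduced folate carrier, went from 49.9% and 50.0% to 42.6% and 43.0% (-0.41 ± 0.07 SE, adjusted p = 4.34e-05), with 6 of 23 sites that fell. Replicates of SLC19A1 were within 1 point of each other in both groups. SLC19A2, a thiamine carrier, went from 37.3% and 38.7% to 32.8% and 32.2% (adjusted p = 0.00488), a call lost without ascorbic acid 2 (adjusted p = 0.0716). Of the monocarboxylate and dicarboxylate carriers 4 of 5 fell. SLC16A10, which moves aromatic amino acids, led them with 64.5% and 65.8% in control and 48.0% and 48.4% after ascorbic acid (-1.01 ± 0.10 SE, adjusted p = 3.49e-08). SLC16A9 went from 43.1% and 41.7% to 35.2% and 33.2%.

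Zinc carriers counted 10 of 17 that fell (58.8%) and a median of -0.33. SLC39A9 went from 43.5% and 45.5% to 33.1% and 33.9% (-0.67 ± 0.08 SE, adjusted p = 8.65e-07). SLC39A14, which also takes up iron and manganese, went from 56.4% and 57.0% to 49.5% and 49.6% (adjusted p = 7.90e-05). SLC39A3 changed little, from 42.3% and 41.5% to 37.9% and 38.8%, with 2 of 23 sites that fell, and leaving out ascorbic acid 1 (adjusted p = 0.229) or 2 (adjusted p = 0.119) ended its call. SLC30A1, the zinc exporter of the plasma membrane, was among the 5 most even members. It stood at 46.7% and 45.0% in control and at 45.3% and 44.6% with ascorbic acid (-0.05 ± 0.09 SE, adjusted p = 0.635), and 0 of its 15 sites passed.

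Carriers of other metals counted 3 of 6 that fell (50%), with a median of -0.58. SLC41A1, a magnesium carrier, went from 39.5% and 42.5% to 28.2% and 29.5% (-0.78 ± 0.08 SE, adjusted p = 1.32e-07), and 9 of its 13 sites fell. SLC41A3 went from 25.9% and 26.8% to 15.8% and 17.0% (adjusted p = 6.91e-06). SLC31A2, related to the copper importer SLC31A1, was even, at 44.0% and 45.4% in control and at 45.3% and 42.5% with ascorbic acid (adjusted p = 0.729). The 2 SLC41 members and SLC31A2 thus differ in how far they moved, and no test of that difference was made.

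Among the exchangers of protons, chloride and cations 10 of 18 fell (55.6%) and 1 rose, with a median of -0.58. SLC12A9, of the cation and chloride cotransporter family, went from 50.3% and 53.3% to 32.7% and 30.8% (-1.22 ± 0.10 SE, adjusted p = 3.49e-09). It was the only member with at least 5 sites of which all fell, 6 of 6. SLC26A11, an anion carrier, went from 30.0% and 35.1% to 19.3% and 17.7% (adjusted p = 3.41e-06), and 5 of 6 sites fell. SLC9A3, the sodium and proton exchanger NHE3, had 28 tested sites and did not pass, with 48.8% and 52.2% in control and 49.6% and 47.1% after ascorbic acid (-0.12 ± 0.08 SE, adjusted p = 0.188). Control 1 lay below ascorbic acid 1 there, and the gene passed without control 1 (-0.22, adjusted p = 0.000663), while without control 2 the change was -0.03 (adjusted p = 0.734).

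Nucleoside and nucleotide sugar carriers counted 8 of 9 that fell, with a median of -0.58. SLC29A1, the nucleoside carrier ENT1, went from 52.0% and 53.0% to 40.2% and 39.2% (-0.75 ± 0.08 SE, adjusted p = 2.79e-07). SLC29A2, the carrier ENT2, went from 37.6% and 39.0% to 28.9% and 29.8% (adjusted p = 8.31e-06). The lipid, choline and acetyl-CoA carriers counted 6 of 9. SLC27A4, which takes up and activates long-chain fatty acids, went from 70.9% and 76.2% to 52.1% and 52.9% (-1.34 ± 0.10 SE, adjusted p = 4.42e-10), with 5 of 7 sites that fell, the largest fall of log odds among members with at least 3 sites. SLC44A2, a choline carrier, went from 58.7% and 57.7% to 43.1% and 45.2% (adjusted p = 5.13e-07). SLC27A2, with 1 site and 27 to 61 reads, went from 60.5% and 71.4% to 25.9% and 27.9%.

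The phosphate and sugar phosphate carriers fell in 3 of 4, the organic ion carriers in 3 of 5, the vesicular and lysosomal carriers in 1 of 3 and the remaining families in 3 of 4. SLC37A4, the glucose 6-phosphate carrier of the endoplasmic reticulum, went from 35.6% and 38.8% to 31.7% and 28.5% (adjusted p = 0.00108), and SLC37A3 from 40.6% and 44.1% to 36.0% and 36.2%; limma on log2 odds called neither (adjusted p = 0.0616 and 0.0638). SLC22A23 went from 53.0% and 56.6% to 44.5% and 47.7% (adjusted p = 0.000178). SLC22A5, the carnitine carrier, went from 34.1% and 32.8% to 29.0% and 27.5%, a call lost without ascorbic acid 2 (adjusted p = 0.101). SLC15A4, a histidine and peptide carrier, went from 32.3% and 32.0% to 27.3% and 26.03%, a call lost without ascorbic acid 1 (adjusted p = 0.0501) or 2 (adjusted p = 0.139). SLC17A5, the sialic acid carrier, did not pass at 36.0% and 24.7% against 19.8% and 24.8% (adjusted p = 0.0620), but passed on leaving out control 2 (adjusted p = 0.00268) or the second treated library (adjusted p = 0.0310). Without control 1 its change was -0.19 (adjusted p = 0.621), against -0.60 with all libraries. SLC66A1, a lysosomal carrier of cationic amino acids, went from 49.4% and 49.8% to 39.8% and 40.4%, and SLC49A4 from 64.1% and 72.3% to 56.4% and 53.3%. The call of SLC66A1 was lost by DESeq2 (adjusted p = 0.0878) and that of SLC49A4 by limma (adjusted p = 0.0509), and without control 2 the change in SLC49A4 was -0.56 against -0.86.

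The 19 genes with other names counted 3 that fell, and 14 of them are pseudogenes, whose reads can be shared with the parent gene and are uncertain. The same holds for near-identical genes such as SLC25A5 and SLC25A6. SLC4A1AP, which encodes kanadaptin and is no carrier, went from 50.5% and 54.6% to 32.9% and 30.8% (-1.26 ± 0.12 SE, adjusted p = 3.12e-08). SLC9A3R2, the scaffold NHERF2, went from 48.8% and 52.5% to 44.4% and 41.8%, a call lost without ascorbic acid 2 (adjusted p = 0.0622). SLC16A1P1, a pseudogene with one of the lowest control levels, stood at 15.4% and 16.2% and at 14.9% and 14.3% and did not pass. With exact carrier names alone 104 of 153 genes fell. Among further members named above, limma on log2 odds also did not call SLC2A6, SLC43A1, SLC7A1, SLC7A5 and SLC9A3R2 (adjusted p = 0.0605 to 0.105), DESeq2 did not call SLC15A4 (adjusted p = 0.133), and neither called SLC19A2, SLC22A5 and SLC39A3 (adjusted p = 0.0510 to 0.129).

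**Figure D3:**
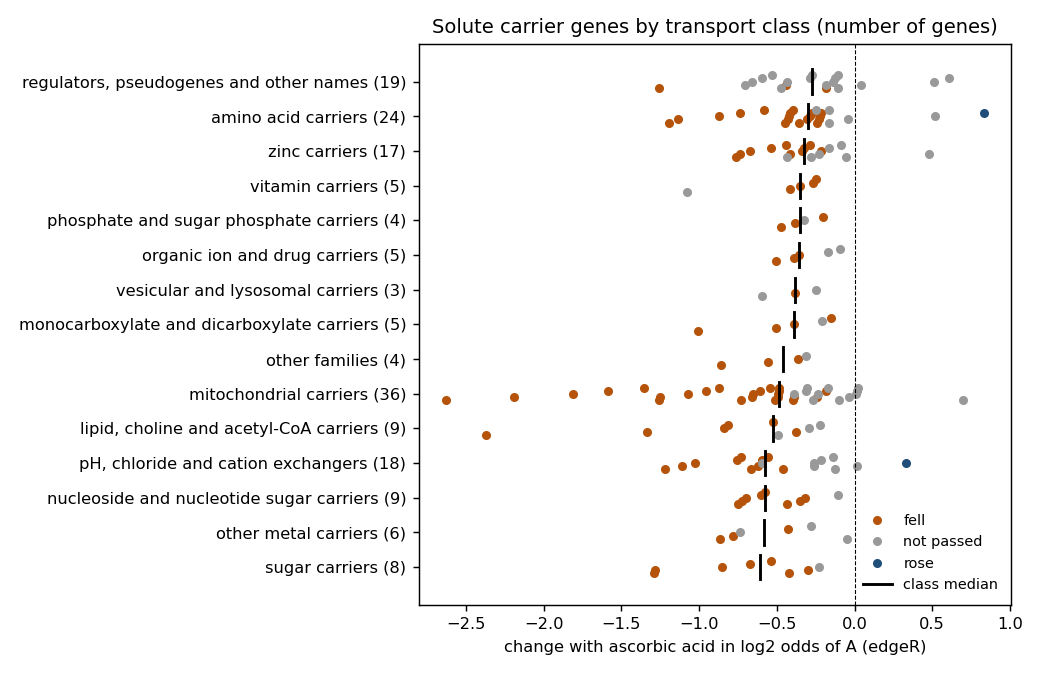
Change in log2 odds of A with ascorbic acid by edgeR (x axis) for each solute carrier gene (points), by transport class (y axis, number of genes in parentheses), with genes that fell in orange, genes that rose in blue, genes that did not pass in grey and a black bar at the class median. All class medians lie below 0, from -0.61 in sugar carriers to -0.27 in regulators, pseudogenes and other names.

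The single sites with large falls were then named, although the typical change was smaller by site than by gene. The median of the changes was -4.55 points over member sites and -6.30 over member genes. Each gene is represented by its site of smallest p, and the named sites are the largest falls in mean level among these. All coordinates are on GRCh38. SLC5A6 led them at chr2:27207568 on the minus strand, 7981 nt from the annotated 3' end of the gene. On 1301 to 1727 reads it went from 87.2% and 88.0% to 39.6% and 41.0% (-3.39 ± 0.11 SE, adjusted p = 5.94e-26). SLC12A9 at chr7:100865905 went from 88.6% and 84.9% to 44.6% and 42.5% on 114 to 177 reads. SLC39A9 at chr14:69399075, near the start of the gene, went from 79.6% and 83.0% to 42.7% and 41.5%. In each of these sites the replicates lay close together and the groups far apart. SLC41A1 at chr1:205810136 went from 54.0% and 61.2% to 21.8% and 19.2%. Another site of SLC41A1, at chr1:205810742 and picked after its values were seen, fell further, from 90.8% and 86.6% to 48.2% and 37.1% on 56 to 87 reads (adjusted p = 2.53e-09), with a listed neighbour at 6 nt. SLC25A39 at chr17:44319632, 4 nt from the annotated 3' end of the gene, went from 54.8% and 55.7% to 17.4% and 21.9%. The sites at chr1:205810136 and chr17:44319632 started at a middle level in control, unlike the others named so far.

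SLC29A4, the monoamine carrier PMAT, went from 93.3% and 93.7% to 54.2% and 59.8% at chr7:5303475 on 60 to 118 reads. SLC12A7, a potassium and chloride cotransporter, went from 95.4% and 92.8% to 58.9% and 56.5% at chr5:1051860. SLC24A1, an exchanger of sodium for calcium and potassium, went from 84.6% and 86.7% to 50.0% and 52.1% at chr15:65625813. The remaining named sites, of the lysosomal nucleoside carrier SLC29A3 at chr10:71322960 and of SLC44A2 at chr19:10643602, fell by 34.6 and 32.7 points in the mean. Adjusted p by edgeR for the 10 sites ran from 5.94e-26 in SLC5A6 to 3.76e-06 in SLC29A3. Whether these positions are exonic, intronic or in a UTR was not analysed here, since the tables at hand give gene spans and starts but no exons.

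**Figure D4:**
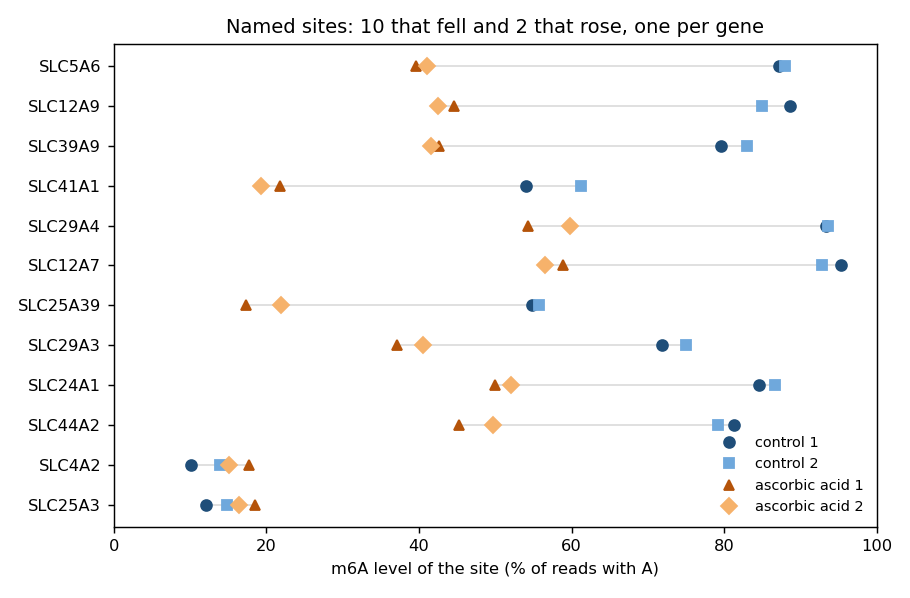
The m6A level (x axis, % of reads with A) at 10 sites that fell and 2 that rose, the site of smallest p in each gene, in each library (control in blue, ascorbic acid in orange); grey lines span the 4 values. The 10 falls leave wide gaps between groups, while SLC4A2 and SLC25A3 lie between 10.1% and 18.5% with little space between groups.

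Sites within 1 transcript differed in level and in call. Among the 98 members with at least 5 tested sites, control levels of single sites spanned a median range of 73.5 points within the gene. In 84 of them some sites passed as lower and others did not pass, in 13 none passed as lower and in 1 all did. Of the member sites that did not pass, 77.5% were lower with ascorbic acid. In SLC5A6 the site at chr2:27200050 went from 85.8% and 84.7% to 45.4% and 44.9%, while the one at chr2:27199787, with nearly the same start of 83.4% and 82.9%, went to 70.3% and 71.4%. Both of these sites fell, and the difference between them was not tested. In SLC7A1 the site at chr13:29513643 went from 95.9% and 95.7% to 87.8% and 83.1%, while 5 of its 39 sites fell in all. SLC1A5 held a site at chr19:46787759 that passed with a small shift near the top of the scale, from 99.5% and 99.1% to 97.3% and 97.3% (adjusted p = 0.000107).

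**Figure D5:**
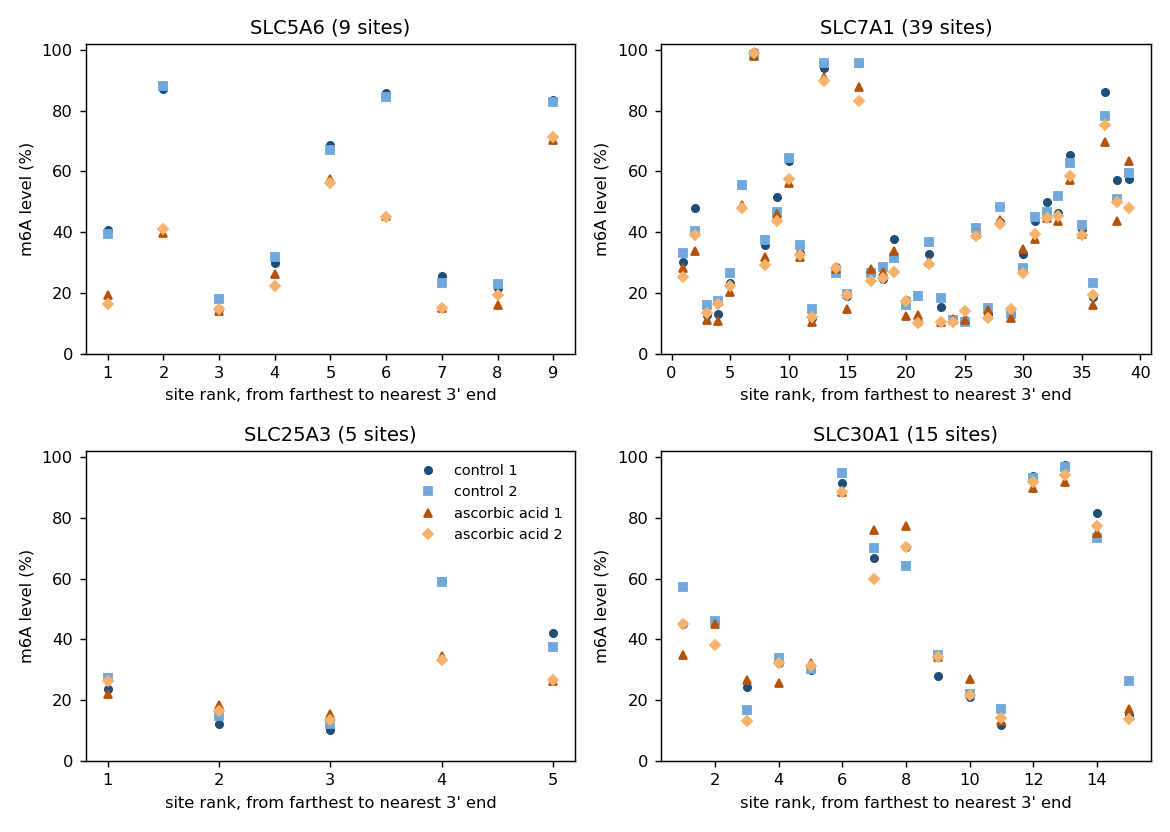
The m6A level (y axis, %) of every tested site in SLC5A6, SLC7A1, SLC25A3 and SLC30A1, ordered along the transcript by rank from the farthest to the nearest to the 3' end of the gene (x axis), in each library. In SLC5A6 8 of 9 sites lie lower with ascorbic acid and pass, in SLC25A3 2 sites lie lower and 2 slightly higher, and in SLC30A1 none passes.

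The 3 sites that rose, 1 in SLC4A2 and 2 in SLC25A3, had a low control level, and each had another listed site 6 nt away. Both genes that rose, SLC4A2 and SLC38A9, also hold such sites. SLC4A2, the chloride and bicarbonate exchanger AE2, had the lowest control level among members with at least 3 sites. It stood at 11.9% and 14.9% in control and at 18.1% and 14.6% with ascorbic acid (0.33 ± 0.11 SE, adjusted p = 0.0174), so that control 2 lay above ascorbic acid 2. A neighbour at 6 nt was listed for 5 of its 6 tested sites. Without such sites the change was -0.54 and did not pass (adjusted p = 0.110), and leaving out control 1 (adjusted p = 0.0551) or the first treated library (adjusted p = 0.381) also ended the call, as did DESeq2 (adjusted p = 0.0605) and limma (adjusted p = 0.233). Without control 2 the change was 0.53. Its named site at chr7:151071551 went from 10.1% and 13.9% to 17.7% and 15.1%, a call lost without control 1, ascorbic acid 1 or ascorbic acid 2 (adjusted p = 0.223, 0.284 and 0.0501) and by DESeq2 and limma (adjusted p = 0.117 and 0.274). SLC38A9, the lysosomal arginine sensor, has 2 tested sites, which are 6 nt apart, and went from 12.3% and 17.9% to 26.8% and 23.2% (0.84 ± 0.30 SE, adjusted p = 0.0227). No member gene was called as risen without control 1, without ascorbic acid 1 or without sites that have a neighbour at 6 nt. Of member sites 5.94% had such a neighbour, and 3.99% of all sites.

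SLC25A3, the mitochondrial phosphate carrier, was even as a whole (-0.04 ± 0.07 SE, adjusted p = 0.686), while its single sites moved in opposite directions. At chr12:98598526 the level went from 12.2% and 14.8% to 18.5% and 16.4% on 4089 to 5217 reads (adjusted p = 0.000618), and the site 6 nt further, at chr12:98598532, rose too. At chr12:98601549 it went from 59.1% and 58.9% to 34.4% and 33.1% (adjusted p = 5.90e-16). Leaving out ascorbic acid 1 ended the call at chr12:98598526 (adjusted p = 0.166), as did limma (adjusted p = 0.295), and without control 1 its change was 0.28 against 0.44. Without sites that have a neighbour at 6 nt, the gene fell by 1.25 on the log2 odds scale (adjusted p = 5.73e-13). The other even members did not split in this way. SLC25A22, a mitochondrial glutamate carrier, stood at 29.7% in both control libraries and at 29.8% and 29.9% with ascorbic acid. SLC25A25, a carrier of ATP-Mg and phosphate, stood at 36.9% and 42.3% against 42.3% and 38.3%.

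Position in the gene was described for sites of protein-coding members that stood at 60 to 90% in control. Within 1000 nt of the 3' end of the gene as annotated, the mean of library medians fell by 14.8 points over 49 sites. From 1000 to 5000 nt it fell by 9.37 points over 99 sites, and beyond 5000 nt it fell by 17.1 points over 81 sites. Over all protein-coding genes the same bins changed by -12.1, -9.78 and -16.0 points, so the smallest fall was in the middle bin in both. Distances are genomic and include introns.

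Levels of RNA, as far as the deposited gene coverage shows them, did not pass a test in any solute carrier. Coverage could be compared for 185 members, and by limma 0 rose and 0 fell, beside 30 (0.253%) and 5 (0.0422%) of 11848 genes. At an unadjusted p under 0.05 there were 38 members (20.5%) and 14.4% of all genes. Differences ran from -0.49 on the log2 scale in the pseudogene SLC25A1P4 to 0.45 in SLC27A3. Without control 1 some members were called as lower in coverage, and the share of all genes called in that setting is not given here. SLC5A6 had a scaled coverage of 628 and 690 in control and of 672 and 666 with ascorbic acid (0.02 ± 0.07 SE, adjusted p = 0.906), so its groups overlapped where its m6A level did not. Across the 172 members, change in level and change in coverage had a Pearson's r of -0.09 and a Spearman's rho of -0.17, as a description over genes of the same libraries.

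Other transport genes, from a list of 52, were measured in 34 cases, of which 19 fell and none rose, beside 56.7% of all 10782 genes that fell. Genes of the ABC family fell in 8 of 15, among them ABCF1, which like ABCE1 acts in translation and carries no solute. The largest fall in log odds among these 15 was that of ABCB6, the mitochondrial porphyrin carrier, at 73.9% ± 0.365 in the controls and 50.2% ± 0.150 in the treated libraries (SD, n = 2). Chaperones of carriers and subunits of the volume-regulated anion channel fell in 4 of 6, the sodium pump in 1 of 4, the mitochondrial channels and MTCH proteins in 2 of 4 (VDAC3 and MTCH1), the organic anion carriers named SLCO in 1 of 2 and the regulators in 3 of 3. The median of the 34 was -0.34 on the log2 odds scale.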

How the data were processed

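The authors deposited a table of called m6A sites per library, with position, strand and gene, on hg38 (GRCh38). The submitters' processing notes name Trimmomatic 0.39 and STAR; the sources used here do not name the site caller or any removal of repeated reads. Unscaled counts of all A and G reads and of A reads at each site are the authors' own. Level and conversion rate are fractions made by the authors, and A over the sum of A and G gave the deposited level within 5e-06. Gene coverage is a signal deposited by the authors without a stated unit. Per the file headers, each site also carries the p-value of its call, raw and adjusted, which was not used. The lowest listed values are 15 reads in all, 5 of them A, and a level of 10%, so a site below these limits in any library could not be compared.

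Sites covered by 20 or more such reads in all 4 libraries were tested with edgeR 4.0.16 (quasi-likelihood test with a term per library and treatment on the odds of A) over all sites, and likewise over genes on summed reads, with Benjamini-Hochberg adjustment and a threshold of 0.05, two-sided. The SE of a log2 odds change was taken from its F statistic. Coverage, scaled by median ratios to geometric means over genes, was tested on log2 values with limma 3.58.1 and a trended eBayes fit. Tests were tried on simulated data. DESeq2 1.42.0, R 4.3.3, Python 3.11.15, numpy 2.4.6, pandas 2.3.3 and matplotlib 3.10.9 were also used. RefSeq (GRCh38.p14) gave gene spans and promoter windows of 250 bases before and 50 after a start; 170 member names matched by symbol and 2 by synonym.

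Members, transport classes and lists were chosen with earlier results of these data known. Named sites are the 10 largest falls and up to 5 largest rises in mean level (past the threshold, at least 50 reads in every library, groups not overlapping), each gene being represented by its site of smallest p. Named genes are the 10 largest falls and all rises with at least 3 sites, the 5 with most sites, the 2 of smallest p per class, the 3 highest and 3 lowest control levels, and the 5 most even with at least 5 sites; genes outside this rule are said to be so or serve the first-base sites. Replicates differed by more than counting error in depth (chi-square per site 6.66 in control and 2.03 with ascorbic acid), so no pair was taken as 1 library. For levels the same measure was 1.15 and 1.04, so the p-values rest largely on read counts, which are not independent molecules. One marker gene of the cell line is not reported here.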

Additional observations from a re-analysis of the deposited data

How the results depend on the processing

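The median member level fell under every alternative tried for it, while counts of calls moved with the test and the libraries. DESeq2 and limma on log2 odds each called 160 member sites as lower, with 2 and 0 as higher, and 69 and 68 genes as lower, with 0 and 1 as higher. With at least 50 reads in every library 5 sites rose, and without sites that have a neighbour at 6 nt none did, nor any gene. In this paragraph, median change means the difference between the group means of library medians, not the median of the changes. It was -6.99 points with no minimum beyond the authors' own, -5.51 with at least 50 reads and -8.74 with each gene counted once. In the main setting the median of the changes was -4.55 points over member sites and -6.30 over member genes. Leaving out 1 library at a time gave 194 to 274 sites lower (274 without control 1, 214 without control 2, 211 without ascorbic acid 1, 194 without ascorbic acid 2) and 1 to 9 higher, 72 to 115 genes lower and 0 to 2 higher, a median change of -6.89 to -5.68, and 0 to 7 genes lower in coverage, the 7 without control 1. For the counts by the other tests, at other read minimums, without neighbours at 6 nt or with 1 library left out, no share over all sites or genes is given in this paragraph. Whether the counts moved more in members than elsewhere can thus not be told from them. SLC4A2 reversed, to -0.54, without sites that have a neighbour at 6 nt.

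Deviations of same-numbered libraries correlated at -0.03 over member sites. Replicate levels differed little beyond counting error, so this value cannot tell whether same-numbered libraries were paired. With the replicate block, 327 member sites fell and 7 rose, 106 member genes fell and 2 rose, and 0 member genes changed in coverage. No share over all sites or genes is given for these counts. SLC17A5 passed in that setting (adjusted p = 0.0353 by edgeR). Of the values of named genes and sites under all settings, 534 kept direction and call, 40 lost and 5 gained a call, 6 uncalled values near 0 changed sign (4 in SLC25A25, 1 each in SLC25A3 and SLC31A2) and 1 called value reversed. The mean coverage minimum of 5 removed no gene. Depth limits single sites: 14.7% of member sites under 50 reads in some library fell, and 37.4% of those with at least 200 reads in every library.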

Other observations

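Some solute carrier sites are listed in 1 group alone and entered no test. Both controls but neither treated library list 105 sites in 70 genes, of 6664 such sites in the whole series, with a median level of 15.4% and 71 of them under 20%. Both treated libraries but neither control list 79 sites in 61 genes, of 6026 in the whole series, with a median of 17.5% and 45 under 20%. A few stood high: in SLC29A4, whose named site fell, chr7:5303395 stood at 100% and 94.7% in the controls on at least 19 reads, and in SLC22A23 chr6:3272989 stood at 92.3% and 89.3% on at least 26 reads. In the other direction, in the treated libraries, SLC24A4 had chr14:92493944 at 100% in both on at least 16 reads, SLC25A52 had chr18:31759877 at 100% and 95.8% on at least 21 reads, and SLC30A1, which was even as a gene, had chr1:211575835 at 92.6% and 88.2% on at least 27 reads. No list holds a site under 15 reads or under a level of 10%, and absence from a list is no measured level. These sites, those with a mean level over 90% in either group, were picked for their high level after their values were seen.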
